A study of Mus musculus with 6 samples.

Results

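The E protein and Id genes were followed in 2 kinds of mouse bone marrow cell. They are the 3 E protein genes Tcf3, Tcf4 and Tcf12 and the 3 Id genes Id1, Id2 and Id3, taken as the rows of the count matrix whose Ensembl IDs carry these symbols in GENCODE M21, 6 genes of 55401 IDs. One kind, called ESC-derived here, was Lin-Sca-1+c-Kit- cells sorted from the marrow of primary recipients that had been given sorted CD144+ cells, with the treatment entered as ESCs differentiation. They were set against LSK cells, the Lin-Sca-1+c-Kit+ marrow fraction that holds stem and multipotent progenitor cells, taken from untreated C57BL/6 mice aged 6 to 8 weeks. Both groups are labelled wild type, and each has 3 libraries made from 2000 sorted cells. The labels give no age or strain for the recipients and no marker that parts donor from host cells. The groups differ in origin, in host and in the c-Kit gate, so these cannot be told apart. Nothing in the labels ties the 3 libraries of a group to separate animals or cultures, so p-values measure only the spread between these samples, which may be technical.

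E proteins are transcription factors of the basic helix-loop-helix class that bind E-box DNA, as dimers with one another or with tissue-specific partners such as Tal1 and Lyl1. Id proteins have the helix-loop-helix but no DNA-binding basic region, so an E protein held by an Id protein cannot bind DNA. In blood formation the balance of the families is known for guiding lymphoid fate: E2A, the product of Tcf3, and HEB, the product of Tcf12, drive early B and T lineage programmes, E2-2, the product of Tcf4, is needed by plasmacytoid dendritic cells, and Id2 is needed by NK cells and other innate lymphocytes.

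The promoters of Id2 and Id3 are shown because these family members moved in opposite directions and had a matched window. The fall of Id3 did not pass the threshold in every fit, as given below. Each line gives the 250 bases before the RefSeq gene start in GRCm38.p6, 5′ to 3′ on the gene's strand, at chr12:25096093-25096342 on the minus strand for Id2 and chr4:136143572-136143821 on the plus strand for Id3. Capitals mark 2 motifs searched on both strands, the E-box CANNTG, where N is any base, and CCAAT, whose reverse complement is ATTGG.
Id2: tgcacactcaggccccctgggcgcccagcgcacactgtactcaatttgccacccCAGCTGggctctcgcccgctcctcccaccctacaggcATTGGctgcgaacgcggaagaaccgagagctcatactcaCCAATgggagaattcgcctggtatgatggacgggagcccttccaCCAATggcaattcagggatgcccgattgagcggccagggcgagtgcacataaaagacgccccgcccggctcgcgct
Id3: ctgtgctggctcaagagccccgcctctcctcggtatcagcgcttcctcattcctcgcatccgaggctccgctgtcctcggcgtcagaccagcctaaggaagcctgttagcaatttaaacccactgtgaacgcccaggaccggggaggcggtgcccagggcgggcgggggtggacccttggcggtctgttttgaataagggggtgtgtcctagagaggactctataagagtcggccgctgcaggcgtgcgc
The Id2 window held 1 E-box, of the form CAGCTG, and 3 CCAAT motifs, and none of these overlapped. CANNTG stood in 66.2% of 32851 promoter windows of this length, CAGCTG in 13.0%, and 3 or more CCAAT motifs in 2.79%. The Id3 window held neither motif. Both windows lie inside the GENCODE M21 gene models, which start further upstream than the RefSeq ones. The GC content was 62.8% in both windows. A match describes letters in this window and is not evidence of binding. Windows were matched for 4 of the 6 genes, and not for Id1 or Tcf4.

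Total counts per library ran from 41580006 to 49269286. Kit, the gene of the gate, had 2, 4 and 6 counts in ESC-derived cells and 2081, 2171 and 2550 counts in LSK cells. All 7 LSK markers fell, with summed levels of 0.238 to 4.12 CPM in ESC-derived cells, against 1844 to 1918 CPM in LSK cells, and Hoxa9 was at 0 in ESC-derived cells. All 9 T cell markers rose, at 9846 to 10554 CPM in ESC-derived cells, against 144 to 155 CPM in LSK cells. Of the B cell markers 4 of 7 fell, with the list at 179 to 215 CPM in ESC-derived cells, against 11932 to 16155 CPM in LSK cells. Most of that sum was Ighm, at 193 CPM in ESC-derived cells against 13466 CPM in LSK cells. All 5 plasma cell markers fell, at 71.7 to 91.4 CPM in ESC-derived cells, against 4203 to 4920 CPM in LSK cells. Jchain, at 4289 CPM, was most of the plasma cell sum in LSK cells. All 3 tested NK cell markers of 5 listed rose, at 85.6 to 121 CPM in ESC-derived cells, against 11.5 to 15.2 CPM in LSK cells, while Klra4 and Klra8 were at 0 in ESC-derived cells. Neutrophil markers rose in 5 of 7, with the list at 2174 to 4285 CPM in ESC-derived cells, against 1052 to 1171 CPM in LSK cells. The other 2, Mpo and Elane, were not called. Their means were lower in ESC-derived cells, 82.4 against 673 CPM for Mpo and 56.7 against 100 CPM for Elane. Mpo varied there, with 5338, 4933 and 181 counts in the ESC-derived libraries. None of 4 tested erythroid markers and 1 of 5 tested endothelial and stromal markers were called. These marker calls used the edgeR threshold given below, which 30.0% of all genes tested passed, 14.8% higher and 15.2% lower. The part of these cell types in the differences below was not tested. LSK replicate 2 lay between the other 2 LSK libraries for most genes. It held the middle value in 66.5% of 8302 genes with a mean of at least 10 CPM. The other 2 LSK libraries held it in 17.1% and 16.3%, and the ESC-derived libraries in 30.4 to 37.7%. Of the 6 genes followed here, LSK replicate 2 held the middle value for Id3 and Tcf12 and not for Id1, Id2, Tcf3 or Tcf4. The log2 values of LSK replicate 2 differed from those of a mixture of 50% LSK replicate 1 with replicate 3 by an SD of 0.229. The SD was 0.396 from replicate 1 alone, 0.443 from replicate 3 alone, and 0.658 between replicates 1 and 3. A library so close to a mixture of its fellows may add little spread of its own, so p-values with it may be too small. Each call of the 6 genes is therefore also given without LSK replicate 2, and list counts are given without it where they move by over 1.5 times.

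All 6 genes passed the low-count filter and entered edgeR's quasi-likelihood fit over 16211 genes, with a Benjamini-Hochberg adjusted p under 0.05 as the threshold. Id2 rose, Id1, Id3, Tcf3 and Tcf4 fell, and Tcf12 did not pass, so 5 of 6 were called. Of all genes tested 30.0% were called, 14.8% higher and 15.2% lower in ESC-derived cells. Values are CPM, each gene's count relative to the scaled library total, for ESC-derived replicates 1, 2 and 3 and then LSK replicates 1, 2 and 3. The groups did not overlap in CPM for 5 of the 6 genes, 1 higher and 4 lower, against 49.8% of all genes tested, 22.6% higher and 27.2% lower. Without LSK replicate 2, 15.9% of 17030 genes were called, and of the 6 genes only Id1 and Id2 remained past the threshold. In bulk RNA, fewer cells that express a gene and less RNA per cell cannot be told apart.

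**Figure D1:**
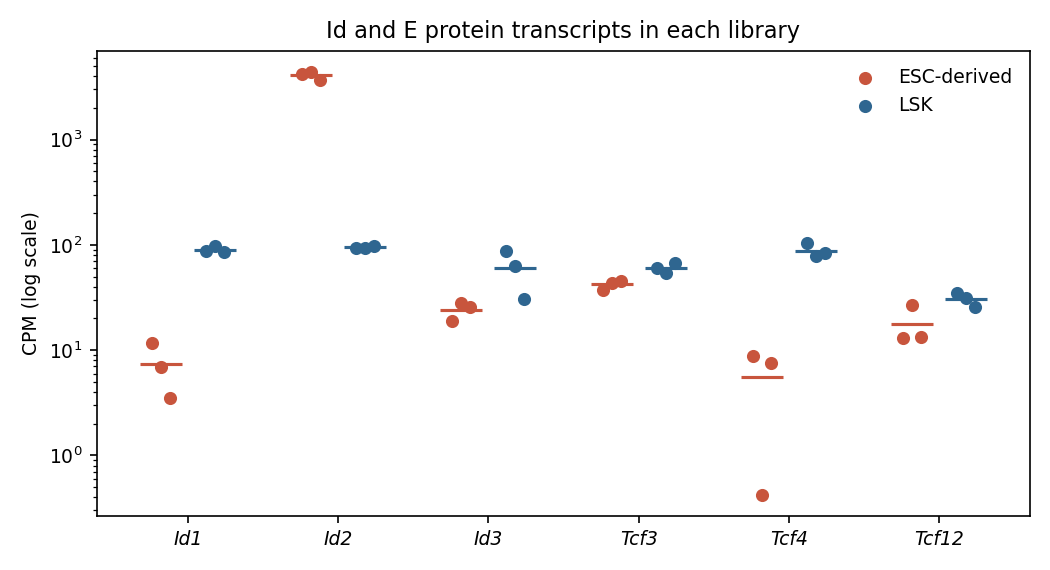
CPM (log axis) of the 6 genes in each library, ESC-derived on the left and LSK on the right, with points for libraries and a line at the mean of 3. Id2 lies at 3701 to 4397 CPM in ESC-derived libraries and at 93.3 to 98.1 CPM in LSK libraries, while Tcf12 is the gene whose groups overlap.

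Id2 (ENSMUSG00000020644, chromosome 12, 25093799 to 25097140, minus strand, GRCm38) encodes the inhibitor linked to innate and effector lymphocytes. It had 4181, 4397 and 3701 CPM in ESC-derived cells, against 94.2, 93.3 and 98.1 CPM in LSK cells. Every ESC-derived library was far above every LSK library, and the libraries within a group were close. The means were 4093 ± 356 CPM in the ESC-derived libraries, against 95.2 ± 2.53 CPM in the LSK libraries (SD, n = 3 each). Id2 was 43.0-fold higher, a log2 fold change of 5.43 ± 0.12 (SE; edgeR adjusted p = 3.17e-06), and 5.39 without LSK replicate 2 (adjusted p = 9.86e-05). Among the 16211 genes it had the 2nd lowest p but ranked 354 by size of rise. Per length, Id2 ranked 41, 44 and 39 among the genes detected in the ESC-derived libraries, against 1620, 1632 and 1562 in the LSK libraries. It took 0.380, 0.388 and 0.356% of all counts in the ESC-derived libraries.

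Id1 (ENSMUSG00000042745, chromosome 2, 152736251 to 152737410, plus strand) is the family member best known as a BMP target and as a regulator of stem cell maintenance. It had 11.8, 6.97 and 3.51 CPM in ESC-derived cells, against 87.9, 97.4 and 85.5 CPM in LSK cells. The LSK libraries were alike and all higher, and the ESC-derived libraries were spread over a wider relative range. The means were 7.42 ± 4.15 CPM in the ESC-derived libraries, against 90.3 ± 6.28 CPM in the LSK libraries (SD, n = 3 each). Id1 was 12.2-fold lower, a log2 fold change of -3.61 ± 0.44 (edgeR adjusted p = 0.00157), and -3.57 without LSK replicate 2 (adjusted p = 0.00806).

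Id3 (ENSMUSG00000007872, chromosome 4, 136143497 to 136145755, plus strand) encodes the inhibitor induced by antigen receptor signals in developing T cells. It had 18.8, 28.2 and 25.6 CPM in ESC-derived cells, against 86.7, 62.9 and 30.6 CPM in LSK cells. The groups did not overlap, but LSK replicate 3 lay near the ESC-derived libraries and far under the other LSK libraries. The means were 24.2 ± 4.86 CPM in the ESC-derived libraries, against 60.1 ± 28.1 CPM in the LSK libraries (SD, n = 3 each). The log2 fold change was -1.31 ± 0.39 (edgeR adjusted p = 0.0424), past the threshold in 8 of 15 alternative fits, whose adjusted p ran from 0.00277 to 0.129. It missed the threshold without LSK replicate 1 (-0.95, adjusted p = 0.129), LSK replicate 2 (-1.30, adjusted p = 0.117) or any one ESC-derived library (adjusted p = 0.0813 to 0.117).

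Id4, the remaining Id gene, was not among the 6 and was not tested. It had 146, 4 and 0 counts in ESC-derived cells and 0 counts in every LSK library, so nearly all its counts came from ESC-derived replicate 1. Over the group it was at least 13.3-fold higher in ESC-derived cells, against a floor of 12 counts over the 3 LSK libraries.

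Tcf3 (ENSMUSG00000020167, chromosome 10, 80409514 to 80433647, minus strand) encodes the E2A proteins E12 and E47. It had 37.7, 43.7 and 45.7 CPM in ESC-derived cells, against 60.6, 54.6 and 67.4 CPM in LSK cells. All ESC-derived libraries were lower than all LSK libraries, by a narrow gap. The means were 42.4 ± 4.21 CPM in the ESC-derived libraries, against 60.9 ± 6.41 CPM in the LSK libraries (SD, n = 3 each). The log2 fold change was -0.52 ± 0.16 (edgeR adjusted p = 0.0492), past the threshold in 7 of 15 alternative fits, whose adjusted p ran from 0.00747 to 0.146. It missed the threshold without any single library, with log2 fold changes of -0.62 to -0.44 (-0.62 and adjusted p = 0.0995 without LSK replicate 2).

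Tcf4 (ENSMUSG00000053477, chromosome 18, 69343356 to 69689079, plus strand) had 8.71, 0.425 and 7.60 CPM in ESC-derived cells, against 103, 78.5 and 83.1 CPM in LSK cells. The groups were far apart, and ESC-derived replicate 2, with 18 counts against 366 and 360 in its fellow libraries, was the lowest by far. The means were 5.58 ± 4.50 CPM in the ESC-derived libraries, against 88.3 ± 13.2 CPM in the LSK libraries (SD, n = 3 each). The log2 fold change was -3.98 ± 0.93 (edgeR adjusted p = 0.0186), past the threshold in 12 of 15 alternative fits, whose adjusted p ran from 0.000476 to 0.0522. The adjusted p was 0.0519 without ESC-derived replicate 3, 0.0522 without LSK replicate 1 and 0.05005 without LSK replicate 2, with log2 fold changes of -4.27, -3.86 and -4.08. Siglech, a marker of plasmacytoid dendritic cells, the type that depends on E2-2, was at 0 in ESC-derived cells. It was also low in LSK cells, with 61, 73 and 134 counts, or 1.92 ± 0.877 CPM. The monocyte and dendritic cell list summed to 333 to 661 CPM in ESC-derived cells, against 682 to 744 CPM in LSK cells. Of its 6 genes 2, Ly86 and Siglech, were called lower and 0 higher. Itgax and Fcgr1 had higher means in ESC-derived cells, 12.3 against 3.31 CPM and 0.467 against 0.196 CPM, but were not called. Lyz2, which was not called, made up most of the list sum, at 512 CPM in ESC-derived cells against 665 CPM in LSK cells. The part of these cells in the Tcf4 difference was not tested.

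Tcf12 (ENSMUSG00000032228, chromosome 9, 71842688 to 72111871, minus strand) had 13.1, 27.0 and 13.4 CPM in ESC-derived cells, against 34.8, 31.6 and 25.4 CPM in LSK cells. ESC-derived replicate 2 lay above LSK replicate 3, so the groups overlapped. The means were 17.8 ± 7.97 CPM in the ESC-derived libraries, against 30.6 ± 4.77 CPM in the LSK libraries (SD, n = 3 each). The log2 fold change of -0.78 ± 0.34 did not pass (edgeR adjusted p = 0.140), and was -0.78 without LSK replicate 2 (adjusted p = 0.285). It passed in 1 of 15 alternative fits, without ESC-derived replicate 2, at -1.21 (adjusted p = 0.0204). The kit does not mark strand and 11 annotated genes overlap Tcf12, 4 of them on the other strand, with at most 311 counts for one of them in one library, so part of its counts could be shared.

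**Figure D2:**
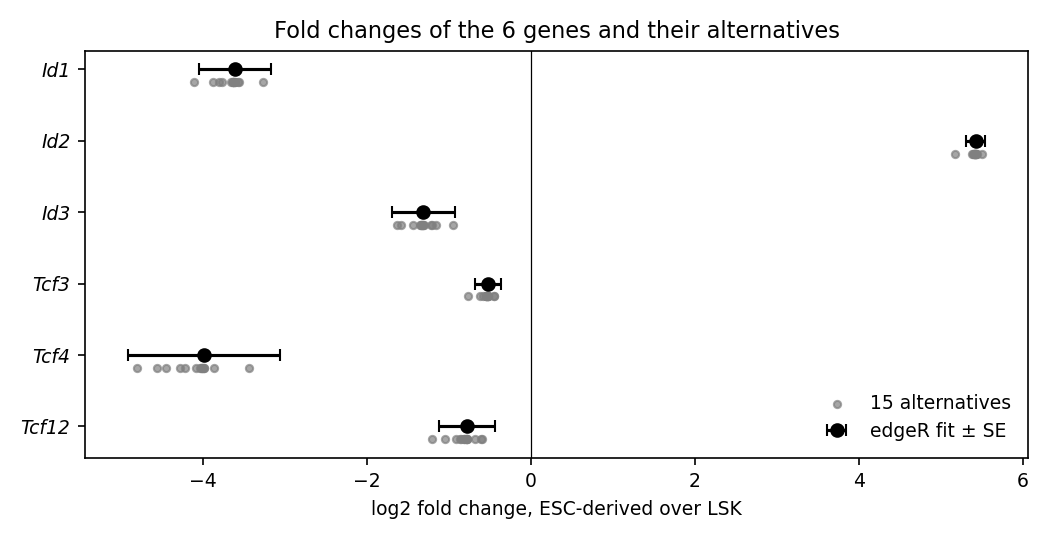
Log2 fold change of each gene (ESC-derived over LSK), with black points for the edgeR estimate, bars for its SE and grey points for the 15 alternative fits. Id2 is the one gene above 0, at 5.43, and Tcf4 and Id1 are the lowest, at -3.98 and -3.61.

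Levels within a library were compared per length, as TPM, which divides each count by the union of annotated exons and scales all libraries alike. In ESC-derived cells the order was Id2 at 2888 ± 18.7 TPM, Id3 at 23.3 ± 4.90, Tcf3 at 18.2 ± 2.90, Id1 at 10.8 ± 5.83, Tcf12 at 1.95 ± 0.737 and Tcf4 at 0.363 ± 0.293 TPM (SD, n = 3). Id3 and Tcf3 overlapped between libraries there, but within each ESC-derived library Id3 was above Tcf3. Tcf3 and Id1 overlapped too, and Id1 was above Tcf3 in ESC-derived replicate 1, at 17.2 against 15.8 TPM. Id2 stood far above every other gene. In LSK cells the order was Id1 at 139 ± 16.3 TPM, Id2 at 69.4 ± 4.10, Id3 at 61.2 ± 32.3, Tcf3 at 26.7 ± 2.20, Tcf4 at 5.77 ± 1.24 and Tcf12 at 3.54 ± 0.812 TPM (SD, n = 3). Id2 and Id3 overlapped in LSK cells, as did Id3 and Tcf3. Within each LSK library Id3 was above Tcf3, by little in LSK replicate 3, at 27.9 against 27.2 TPM. Per length, Id1 thus led the Id genes in LSK cells and was the lowest of them in ESC-derived cells. Tcf3 led the E proteins per length in both groups. Without length correction Id2 held 39.2% and Id1 37.0% of the Id counts in LSK cells. Tcf4 then held 48.96% and Tcf3 34.0% of the E protein counts in LSK cells.

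Within the Id family, Id2 made up 98.8 ± 0.037% of the per-length sum in ESC-derived cells and 26.2 ± 3.86% in LSK cells. Id1 made up 0.370 ± 0.197% in ESC-derived cells and 52.1 ± 4.99% in LSK cells, and Id3 0.799 ± 0.172% in ESC-derived cells and 21.7 ± 8.35% in LSK cells. Among the E proteins, Tcf3 made up 88.6 ± 2.43% in ESC-derived cells and 74.3 ± 3.46% in LSK cells. Tcf4 made up 1.79 ± 1.502% in ESC-derived cells and 15.9 ± 1.89% in LSK cells, and Tcf12 9.59 ± 3.72% in ESC-derived cells and 9.79 ± 1.85% in LSK cells (SD, n = 3 each). Shares add to a whole, so they are described without a test. The Tcf3 and Tcf4 shares depend on gene length, since the annotated exons of Tcf4 add to 27382 bases and its longest transcript has 8577: on longest transcripts Tcf4 made up 3.82% in ESC-derived cells and 28.7% in LSK cells.

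**Figure D3:**
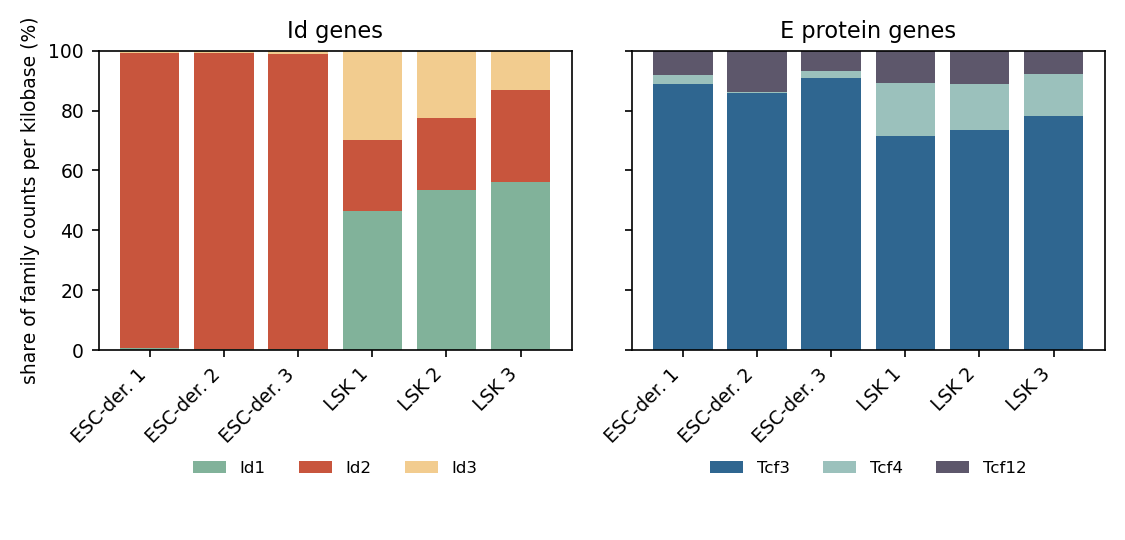
Share (%) of each gene in the per-length sum of its family, one stacked bar per library, ESC-derived libraries left of LSK libraries. Id2 fills nearly the whole Id bar in each ESC-derived library, and Tcf3 is the largest part of every E protein bar.

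The summed Id level was 4212, 4432 and 3730 CPM in ESC-derived cells, against 269, 254 and 214 CPM in LSK cells, 16.8-fold higher. The summed E protein level was 59.4, 71.1 and 66.7 CPM in ESC-derived cells, against 199, 165 and 176 CPM in LSK cells, 2.73-fold lower. Per length the Id sum was 2939, 2926 and 2900 TPM in ESC-derived cells, against 311, 283 and 214 TPM in LSK cells, 10.8-fold higher, and the E protein sum was 20.5 ± 2.91 TPM in ESC-derived cells, against 36.1 ± 3.64 TPM in LSK cells, 1.76-fold lower. Neither sum overlapped between groups in either unit. Each gave an exact two-sided permutation p of 0.1, the smallest that 3 against 3 libraries can give. Id1 and Id3 together had 30.6, 35.2 and 29.1 CPM in ESC-derived cells, against 175, 160 and 116 CPM in LSK cells, 4.76-fold lower (exact permutation p = 0.1).

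The Id to E protein ratio, the per-length Id sum over the per-length E protein sum in the same library, was 165.6, 145.2 and 123.2 in ESC-derived cells, against 7.74, 8.54 and 6.13 in LSK cells. Every ESC-derived ratio was above every LSK ratio. The mean log2 ratio was 7.17 ± 0.21 in ESC-derived cells and 2.89 ± 0.25 in LSK cells (SD, n = 3 each), a difference of 4.28, or 19.4-fold (exact two-sided permutation p = 0.1, the smallest possible). Without LSK replicate 2 the difference was 4.38. On the longest transcript of each gene it was 4.61, and with plain CPM sums 5.52. Id2 carried its direction: with Id2 left out the ratio was 1.97, 1.73 and 1.39 in ESC-derived cells, against 5.91, 6.46 and 4.25 in LSK cells, a difference of -1.70 (exact permutation p = 0.1). With all 3 Id genes and geometric means in place of sums, the difference was 2.22. These are ratios of RNA and not of protein.

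**Figure D4:**
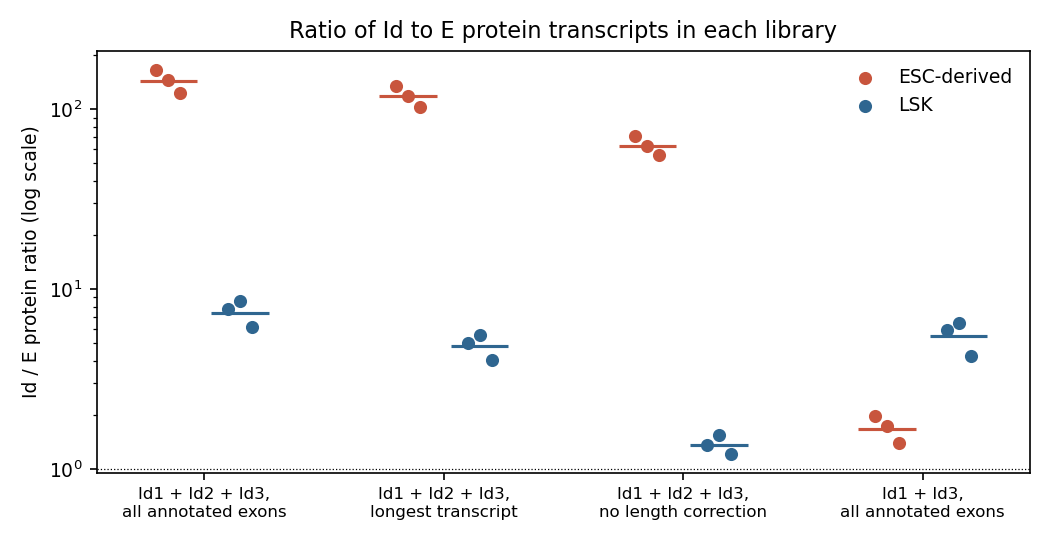
Id to E protein ratio per library (log axis), ESC-derived left of LSK, points for libraries and a line at their geometric mean, under the length and member settings given in the text. With all 3 Id genes the ESC-derived libraries lie at 123.2 to 165.6, above the LSK libraries; with Id2 left out they lie at 1.39 to 1.97, below them.

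Around the 6 genes, 11 lists of 133 different genes were read for dimer partners, inputs and known targets. Of these 107 were tested, and 33 rose and 33 fell, 30.8% each, against 14.8% and 15.2% of all genes tested. Their median log2 fold change was -0.30, against -0.07 over all genes. Without LSK replicate 2 there were 27 that rose and 19 that fell. The lists were chosen with results of these data known, and the T cell markers that were high and the B cell markers that were low in ESC-derived cells move with several of them; their part in these counts was not tested. Bach2, Cul1, Egr2, Hes5, Rag2, Smad2, Tcf15, Zbtb16 and Zeb2, named below, were not past the threshold without LSK replicate 2 (adjusted p = 0.0546 to 0.155).

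Among other helix-loop-helix repressors, 6 of 9 were tested, 1 rose and 2 fell, with a median of -1.78. Only 1 fell without LSK replicate 2, and likewise without any other single library except ESC-derived replicate 2. Bhlhe40, a repressor that binds E-box-like sites, rose to 503 ± 73.8 CPM in ESC-derived cells, against 65.8 ± 3.43 CPM in LSK cells (log2 fold change 2.93 ± 0.14). Hes1, a Notch target, fell to 1.23 ± 1.86 CPM in ESC-derived cells, against 71.6 ± 4.93 CPM in LSK cells (-5.86 ± 1.24), and 143 of its 157 ESC-derived counts were in replicate 2. Hes5 had 4 counts in all in ESC-derived cells, a 71.4-fold lower level with a 95% counting interval of 12.4 to 2858.

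Of the partners that pair with E proteins on DNA, 4 of 17 were tested, 3 fell and none rose, with a median of -5.80, or -5.59 with bounded genes at their bound. The number that fell was 1 without LSK replicate 2 and 2 without LSK replicate 1, LSK replicate 3 or ESC-derived replicate 1, and 1 gene rose without ESC-derived replicate 3. Lyl1, a partner used in stem cells and early lymphoid progenitors, fell to 1.62 ± 0.049 CPM in ESC-derived cells, against 81.4 ± 4.95 CPM in LSK cells (log2 fold change -5.65 ± 0.18). Tcf15 was at 0 in ESC-derived cells, at least 14.6-fold lower. Msc, which was not tested and is named after its values were seen, had 68, 99 and 0 counts in ESC-derived cells and 0 in LSK cells, at least 14.8-fold higher. Of the cofactors and corepressors, which include the LIM adaptors that bridge Tal1 complexes, 10 of 12 were tested and 4 fell, with a median of -1.42. Ssbp2 fell to 21.9 ± 2.68 CPM in ESC-derived cells, against 222 ± 20.3 CPM in LSK cells (-3.34 ± 0.15), and Cbfa2t3, the corepressor ETO2, fell to 2.21 ± 0.440 CPM in ESC-derived cells, against 41.8 ± 12.5 CPM in LSK cells (-4.24 ± 0.35).

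BMP and TGF-beta signals are known inducers or repressors of Id genes. Of this list 19 of 24 were tested, 1 rose and 6 fell, with a median of -0.45. Only 3 fell without LSK replicate 1, 2 or 3, and 4 fell without ESC-derived replicate 1 or 3 but 5 without replicate 2; 0 rose in these fits except the one without ESC-derived replicate 1. Eng, the co-receptor endoglin, fell to 2.52 ± 0.583 CPM in ESC-derived cells, against 77.2 ± 5.39 CPM in LSK cells (log2 fold change -4.94 ± 0.25). Acvr2b, an activin receptor, was at 0 in ESC-derived cells, at least 76.4-fold lower. Smad2, a TGF-beta effector, rose to 47.6 ± 7.05 CPM in ESC-derived cells, against 29.3 ± 2.04 CPM in LSK cells (0.70 ± 0.18). With scaling on library totals alone Smad2 was not past the threshold (adjusted p = 0.143). Egr factors are known to act upstream of Id3 after receptor signals, and Nab proteins are their cofactors: all 5 were tested, 2 rose and 1 fell, with a median of 0.23, and 1 rose without LSK replicate 2 or 3. Nab1 (1.52 ± 0.18) and Egr2 (1.45 ± 0.36) rose, and Egr1 fell to 257 ± 28.8 CPM in ESC-derived cells, against 1475 ± 236 CPM in LSK cells (-2.52 ± 0.15).

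Known E protein targets were read by lineage. Of the B lineage targets 14 of 15 were tested, 2 rose and 9 fell, with a median of -5.50, or -4.87 with bounded genes at their bound. Cd79a, a subunit of the B cell receptor, fell to 2.36 ± 0.925 CPM in ESC-derived cells, against 228 ± 3.61 CPM in LSK cells (log2 fold change -6.59 ± 0.35). Dntt, the terminal transferase, fell to 0.172 ± 0.222 CPM in ESC-derived cells, against 275 ± 23.3 CPM in LSK cells (-10.56 ± 0.77). Foxo1 (1.96 ± 0.29) and Il7r (1.63 ± 0.25), which T cells also express, rose. Of the thymocyte targets 13 of 16 were tested, 8 rose and 2 fell, with a median of 2.80, and 1 fell without LSK replicate 1 or 2. Tcf7, which encodes the T cell factor TCF1, rose to 85.5 ± 14.2 CPM in ESC-derived cells, against 4.18 ± 0.381 CPM in LSK cells (4.36 ± 0.21), and Cd28 rose to 338 ± 65.8 CPM in ESC-derived cells, against 27.3 ± 4.39 CPM in LSK cells (3.63 ± 0.20). Rag2, which serves receptor rearrangement, was at 0 in ESC-derived cells and at least 27.96-fold lower. Ptcra, the pre-T cell receptor chain, was at 0 in all 6 libraries.

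Genes of lymphocytes known for high Id2 were all tested, 15 of 15: 12 rose and 2 fell, with a median of 3.97, and without LSK replicate 2 there were 10 that rose and 0 that fell. Il2rb, a chain of the IL-2 and IL-15 receptors, rose to 757 ± 79.8 CPM in ESC-derived cells, against 19.8 ± 2.63 CPM in LSK cells (log2 fold change 5.25 ± 0.16), and Gzmb, a granzyme, rose to 682 ± 82.0 CPM in ESC-derived cells, against 15.2 ± 2.33 CPM in LSK cells (5.49 ± 0.18). Zbtb16, which encodes the innate-like factor PLZF, was at 0 in ESC-derived cells, at least 9.08-fold lower, and Zeb2 fell (-1.84 ± 0.39). Of 12 genes of T cells known for high Id3, all tested, 6 rose and 2 fell, with a median of 1.04, and 1 fell without LSK replicate 2 or 3 or ESC-derived replicate 2 or 3. Eomes, a T-box factor of memory cells, rose to 34.0 ± 7.19 CPM in ESC-derived cells, against 0.906 ± 0.0871 CPM in LSK cells (5.23 ± 0.32). Bach2, a transcriptional repressor of lymphocytes, fell to 0.788 ± 0.422 CPM in ESC-derived cells, against 4.73 ± 2.26 CPM in LSK cells (-2.58 ± 0.76).

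**Figure D5:**
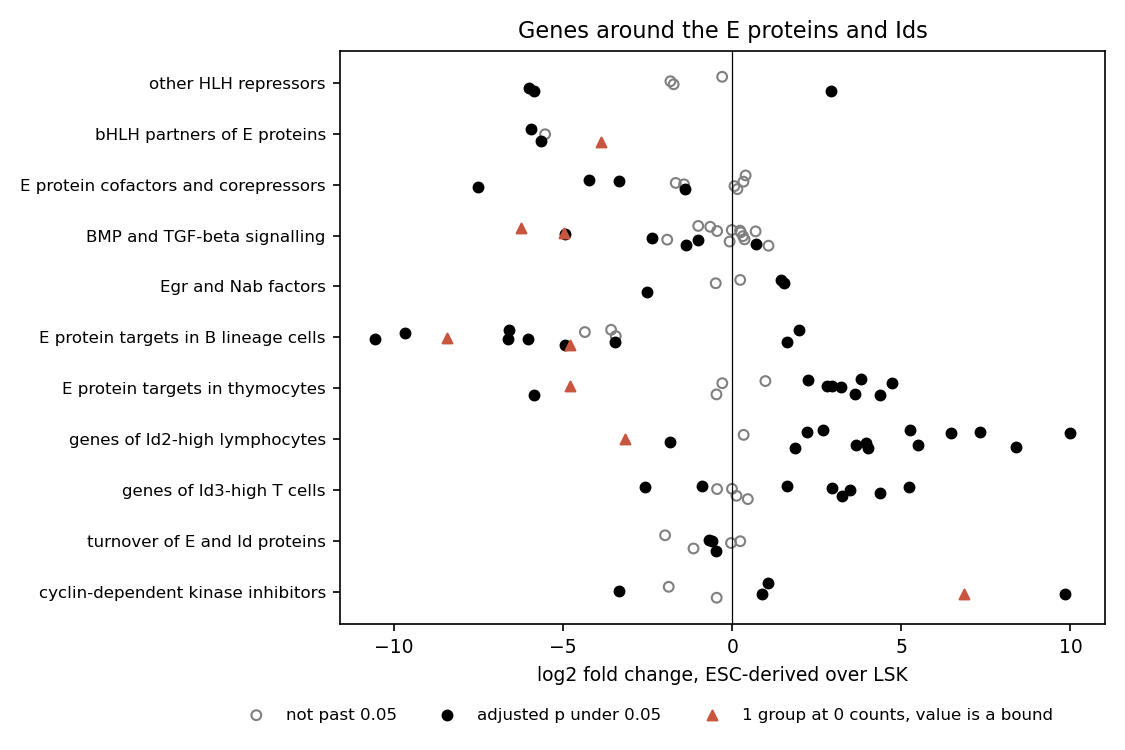
Log2 fold change (ESC-derived over LSK) of each tested gene of the 11 lists, 1 row per list. Filled points passed the adjusted p threshold of 0.05, open points did not, and triangles are bounds for genes at 0 counts in 1 group; the B lineage targets lie mostly left of 0 and the genes of Id2-high lymphocytes mostly right of it.

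Of 7 genes for the turnover of E and Id proteins, all tested, 3 fell and none rose, with a median of -0.61. Only 1 fell without LSK replicate 1, LSK replicate 2 or ESC-derived replicate 2, and 2 without ESC-derived replicate 1. Stub1, a ubiquitin ligase, fell to 149 ± 12.2 CPM in ESC-derived cells, against 239 ± 24.5 CPM in LSK cells (log2 fold change -0.68 ± 0.12), and Cul1, a ligase scaffold, fell (-0.48 ± 0.13). E proteins are known to raise some cyclin-dependent kinase inhibitors: of 7, all tested, 4 rose and 1 fell, with a median of 0.88. Only 2 rose without any single library other than LSK replicate 3, where 3 rose, and 2 rose with scaling on library totals alone. Cdkn1a, which encodes p21, fell to 40.6 ± 6.17 CPM in ESC-derived cells, against 411 ± 13.7 CPM in LSK cells (-3.34 ± 0.15). Cdkn2b had 1473, 895 and 1408 counts in ESC-derived cells, against 4, 0 and 0 counts in LSK cells, a ratio of 1005 with a 95% counting interval of 180 to 39717. Cdkn2a had 446, 587 and 270 counts in ESC-derived cells and 0 in LSK cells, at least 116-fold higher.

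The genes with the most similar pattern over the 6 libraries were taken by distance in centred log2(CPM + 1) among 9319 protein coding genes. For Id2 they were Art2b, with 45.5, 52.4 and 41.9 CPM in ESC-derived cells, against 0.186, 0.219 and 0 CPM in LSK cells (distance 0.287), and the granzyme gene Gzmm (0.318). Gzmm was at 0 CPM in every LSK library, while Id2 had 93.3 to 98.1 CPM there. The 1 CPM added before the log limits the rise of genes so near 0. In fits with 1 library left out, log2 fold changes were 7.82 to 8.89 for Art2b and 13.6 to 13.7 for Gzmm, against 5.37 to 5.50 for Id2. The nearest genes to Id1 were Rabl2 (0.485) and Sirt3 (0.521), for Id3 Plpp5 (0.391) and Mvb12b (0.406), for Tcf3 Arl3 (0.164) and Zfp410 (0.168), for Tcf4 Oasl2 (0.587) and Eef2k (0.643), and for Tcf12 Sec22a (0.211) and Drosha (0.240). The distances describe 6 libraries in 2 groups and were given no test.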

How the data were processed

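The deposited table holds estimated counts per Ensembl gene ID for 6 libraries, written as whole numbers and not normalized. Per the labels' protocols, cDNA came from the SMART-Seq v4 kit, which does not mark strand, and libraries from the Nextera XT kit. HISAT, StringTie and the build mm10 appear in the submitters' processing notes; the counting program is not given in the sources used here. One header field holds the 6 column names, which were assigned in their order there.

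Of the values from 1 to 20, 40.1 to 47.2% were divisible by 4, so a fragment was often worth about 4 counts. A floor of 12 counts per group of 3 libraries (3 fragments) was used; floors and intervals cover counting error only. Of 55401 IDs, 55141 matched GENCODE M21 and 260 did not.

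Counts were filtered (filterByExpr), TMM-scaled and tested with edgeR 4.0.16 in R 4.3.3 (quasi-likelihood F test, robust, ESC-derived minus LSK), and CPM came from the same scaling. The SE is the size of the log2 fold change divided by the root of F. Ratios were tested by exact permutation (SciPy 1.17.1). The fit was tested on simulated counts. Alternatives used DESeq2 1.42.0, limma 3.58.1 (voom), other scalings and filters, values divided by 4, the replicate block and each library left out; counts over the lists and fits of named genes under these were added after seeing the data. Members and lists were chosen with earlier results of these data known. Named genes were the 6, Id4, Kit, up to 2 higher and 2 lower genes of each list by adjusted p, and 2 genes nearest in pattern to each of the 6. One gene that this rule takes is not reported here.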

Additional observations from a re-analysis of the deposited data

How the results depend on the processing

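Id1 and Id2 kept their direction and stayed past the threshold in all 15 alternative fits (log2 fold changes -4.11 to -3.27 and 5.18 to 5.50). Id3 missed it with limma-voom (-1.21, adjusted p = 0.0664) and the replicate block (-1.21, adjusted p = 0.106), and ran from -1.64 to -0.95 with 1 library left out. Tcf3 missed it without the low-count filter (-0.53, adjusted p = 0.0687) and with the replicate block (-0.52, adjusted p = 0.0970), and ran from -0.62 to -0.44 with 1 library left out. Those ranges were -4.45 to -3.43 for Tcf4 and -1.21 to -0.60 for Tcf12. Over all genes, leaving out 1 library gave 1466 to 2163 higher and 1250 to 2440 lower genes, the lowest counts without LSK replicate 2, and 19 to 29 lower list genes. Correlations of deviations between samples of the same replicate number were 0.00426 to 0.0537. They gave no clear sign of pairing but, with no samples of unlike number beside them, cannot exclude it. With the replicate block 1488 genes were lower and 1732 higher, with 21 lower list genes. Scaling on library totals moved the median of all genes by -0.25 and split the calls into 1756 higher and 3057 lower, against 2395 and 2466 in the main comparison.

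The Id to E protein difference, 4.28 as a log2 ratio, reversed to -1.70 with Id2 left out, was 4.28 in the replicate block (exact p = 0.25, the smallest for 3 pairs), and ran from 4.14 to 4.39 with 1 library left out. Without length correction the Id2 share was 99.2% in ESC-derived cells and 39.2% in LSK cells, the Tcf3 share 64.5% in ESC-derived cells and 34.0% in LSK cells, and the Tcf4 share 8.88% in ESC-derived cells and 48.96% in LSK cells. On longest transcripts the Tcf3 share was 80.5% in ESC-derived cells and 57.7% in LSK cells, and the Tcf4 share 3.82% in ESC-derived cells and 28.7% in LSK cells. For single named genes outside the 6, 608 of 667 values under the alternatives kept their call, 52 lost it, 7 gained one and 0 reversed; of 330 counts of single lists 51 moved by over 1.5 times. The causes of these shifts were not tested. The 18 counts of Tcf4 in ESC-derived replicate 2 came from a library of 47977215 counts, and the precision of so low a value is small.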
